A study of Mus musculus with 12 samples.

Results

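The collagen genes of the mouse were read out of bulk RNA sequencing of mesothelioma tumours and set side by side by structural class. A gene was taken as a member when its symbol had the form of a collagen chain, that is Col, a number, the letter a and a number. The table held 44 such genes among 35999. By structure, 11 encode fibrillar chains, 9 network chains, 9 fibril-associated chains, 4 transmembrane chains and 6 beaded filament chains. A further 2 encode multiplexins, 1 the anchoring fibril chain, and 2 belong to none of these classes. Enough counts for a test were present for 40 of the 44. The 4 others were Col2a1 of the fibrillar class, Col9a1 and Col19a1 of the fibril-associated class and Col13a1 of the transmembrane class.

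Tumours of AB1-HA, a transplantable mesothelioma line of BALB/c origin that expresses influenza haemagglutinin, were grown under the skin of male BALB/c mice aged 8 to 10 weeks. Treated mice received 100 µg of a monoclonal anti-CD4 antibody on days -3, 0 and 7 counted from inoculation (6 tumours), and control mice received PBS, not a control antibody, on the same days (6 tumours). All tumours were taken on day 9, and all carried the same tumour line. The comparison is of anti-CD4 antibody with PBS. Loss of CD4 T cells and other effects of the injected antibody cannot be told apart in it. Each tumour is a mixture of tumour cells and host stroma, and none of the collagen counts can be assigned to either. Cd4, the target of the antibody, lay at 0.618 to 2.13 CPM in anti-CD4 tumours and 4.34 to 9.93 CPM in PBS tumours. Its log2 fold change was -2.26 with an SE of 0.28 (adjusted p = 0.00298). Levels are in CPM (counts per M counts) after TMM scaling between libraries. Library totals were 34.45 to 62.06 M counts in the anti-CD4 group and 30.75 to 41.93 M in the PBS group, so the anti-CD4 libraries were on average deeper, with a mean of 46.4 M against 36.08 M in PBS. Mesothelial markers were partly present: Msln, mesothelin, averaged 122 CPM in anti-CD4 tumours and 125 CPM in PBS tumours, whereas Upk3b, Muc16, Krt18 and Krt19 were too low to test.

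Collagens are secreted or membrane-bound proteins in which chains wind into a triple helix, and the helix requires a glycine at each turn of 3 residues. Fibrillar collagens have one long unbroken helix and pack side by side into fibrils, the main tensile element of connective tissue and tumour stroma. Network collagens have a helix with interruptions and build the sheets of basement membranes (type IV) or hexagonal lattices (types VIII and X). Fibril-associated collagens sit on the surface of fibrils, transmembrane collagens are anchored in the cell membrane, and type VI chains form beaded filaments around cells. Fibroblasts are the chief source of fibrillar collagens in most tissues.

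The difference between fibrillar and other chains can be read in the coding sequence, since every glycine codon is GGN. In the GENCODE M21 transcripts on GRCm38, the longest unbroken run of such triplets was 338 triplets in the median fibrillar chain, with a range of 216 to 344. It was 39 to 66 triplets in network chains, 32 to 113 in fibril-associated chains, 40 to 55 in transmembrane chains and 37 to 87 in beaded filament chains. These ranges overlapped, so run length did not separate the non-fibrillar classes from each other. The 2 fibrillar genes with shorter runs were Col24a1, with 216, and Col27a1, with 217. Shown here is a stretch of 18 codons from 5 members, 5′ to 3′ on the coding strand, with the glycine codons of the repeat in capitals. Where the spacing between capitals widens beyond 6 lower-case letters, the repeat is broken.
Col3a1, fibrillar (chromosome 1, plus strand): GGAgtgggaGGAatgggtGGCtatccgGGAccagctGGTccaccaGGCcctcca
Col8a1, network (chromosome 16, minus strand): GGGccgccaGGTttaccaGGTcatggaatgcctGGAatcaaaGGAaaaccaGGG
Col4a1, network (chromosome 8, minus strand): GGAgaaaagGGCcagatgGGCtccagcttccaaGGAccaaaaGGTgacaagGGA
Col16a1, fibril-associated (chromosome 4, plus strand): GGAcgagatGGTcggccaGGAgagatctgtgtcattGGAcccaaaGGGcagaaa
Col23a1, transmembrane (chromosome 11, plus strand): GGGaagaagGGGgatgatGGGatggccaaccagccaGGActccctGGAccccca
The Col3a1 stretch runs without a break, and each of the other 4 holds a break.

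Across the classes, 3 collagen genes were higher in anti-CD4 tumours at an adjusted p under 0.05, and none was lower. They were Col8a1 of the network class, Col6a3 of the beaded filament class and Col11a1 of the fibrillar class, with increases of 1.23-fold, 1.40-fold and 1.25-fold. Among all 17940 genes tested, 2.95% were called higher and 2.33% lower by the same edgeR quasi-likelihood test with Benjamini-Hochberg adjustment, from which all adjusted p-values of genes below are taken. Called in either direction were 5.28%. At an unadjusted p under 0.05, 12 collagen genes were higher and 6 lower, against 13.4% and 14.7% of all genes. DESeq2 called 7 collagens higher, adding Col3a1, Col4a5, Col6a1 and Col12a1, and 3 lower (Col6a5, Col7a1 and Col26a1), against 7.35% of all genes higher and 6.38% lower. Limma voom called 13 higher and 7 lower, against 15.7% and 17.7%. All 3 genes named above were called higher by both. The groups did not overlap for 2 collagens, Col8a1 and Col3a1, both higher in anti-CD4 tumours, a pattern found for 1.93% of all genes in that direction and 1.19% in the other. The median log2 fold change was 0.17 over the 40 collagens, 25 of which were above 0, and 0.00 over all tested genes. In bulk tissue a change in the number of cells of a type and a change in RNA per cell cannot be told apart, and this holds for every value below.

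**Figure D1:**
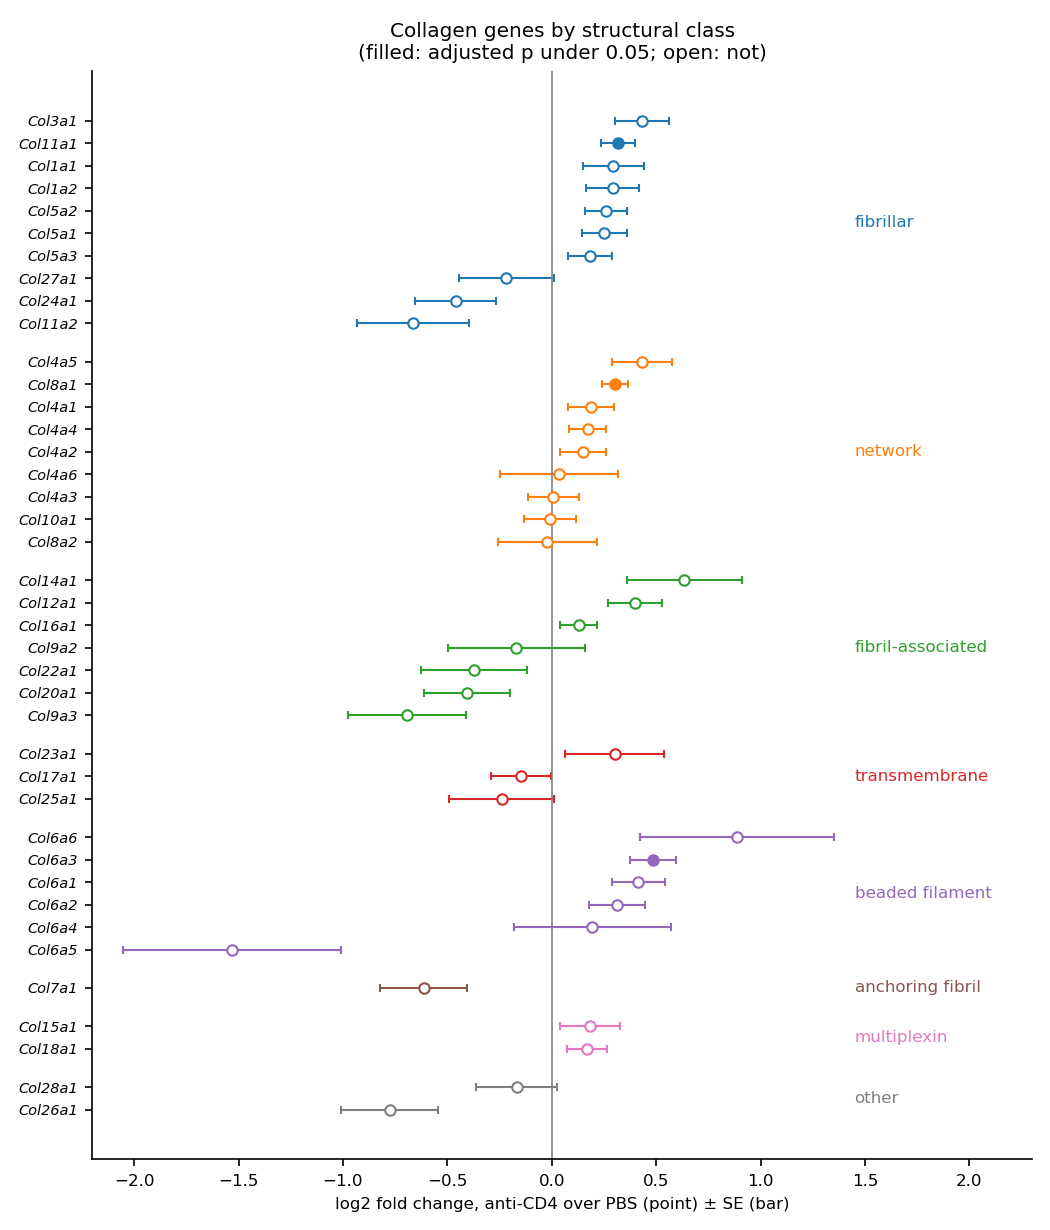
Log2 fold change of each tested collagen gene, anti-CD4 over PBS (point), with its standard error (bar), grouped and coloured by structural class. Filled points mark the 3 genes with an adjusted p under 0.05, Col11a1, Col8a1 and Col6a3, and the widest bars belong to genes of low level such as Col6a5 and Col6a6.

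By class, the median log2 fold change was 0.26 for fibrillar collagens (7 of 10 tested above 0), 0.15 for network collagens (7 of 9), -0.17 for fibril-associated collagens (3 of 7), -0.15 for transmembrane collagens (1 of 3) and 0.36 for beaded filament collagens (5 of 6). The 2 multiplexins were at 0.17 and 0.18. These medians are descriptions of the members and carry no test. The fibril-associated median was -0.41 without anti-CD4 tumour 1 and 0.01 without PBS tumour 6.

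Summed over all members, collagen RNA made up 3.43% to 4.32% of counts in anti-CD4 tumours and 2.21% to 3.70% in PBS tumours, with means of 3.76% ± 0.358 in anti-CD4 and 3.10% ± 0.518 in PBS tumours (SD, n = 6 each). The sum was 35000, 38240 and 44530 CPM (lowest, median and highest tumour) in the anti-CD4 group and 20420, 30750 and 36030 CPM in the PBS group. In CPM, 4 of 6 anti-CD4 tumours lay above the highest PBS tumour, and as a percent of counts 2 of 6 did, anti-CD4 1 and 4. PBS tumour 6 was the lowest of all. Fibrillar chains supplied most of it, at 30970 ± 3046 CPM in anti-CD4 tumours and 24140 ± 4847 CPM in PBS tumours, a ratio of 1.28. The beaded filament class followed, at 5341 ± 607 CPM in anti-CD4 tumours and 4054 ± 720 CPM in PBS tumours, a ratio of 1.32, with 5 of 6 anti-CD4 tumours above every PBS tumour. The network class summed to 1668 ± 159 CPM in anti-CD4 tumours and 1423 ± 224 CPM in PBS tumours, and the fibril-associated class to 402 ± 59.4 CPM in anti-CD4 tumours and 334 ± 42.1 CPM in PBS tumours. For the transmembrane class the sums were 9.13 ± 2.83 CPM in anti-CD4 tumours and 8.55 ± 1.27 CPM in PBS tumours. Without correction for transcript length, fibrillar chains were 79.97% of collagen CPM in anti-CD4 tumours and 79.67% in PBS tumours. Beaded filament chains were 13.8% in anti-CD4 and 13.4% in PBS tumours. Network chains were 4.33% in anti-CD4 and 4.77% in PBS tumours, and fibril-associated chains 1.04% in anti-CD4 and 1.12% in PBS tumours. The ranges of the groups overlapped for each of these 4 shares. The shares depend on the length used. Per kilobase of mean protein-coding transcript, fibrillar chains were 83.5% to 87.0% and beaded filament chains 7.91% to 10.1% over all tumours. By the longest transcript they were 77.25% to 81.7% and 13.0% to 16.4%. Without PBS tumour 6 the ratio of the summed collagens was 1.20 in place of 1.28.

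**Figure D2:**
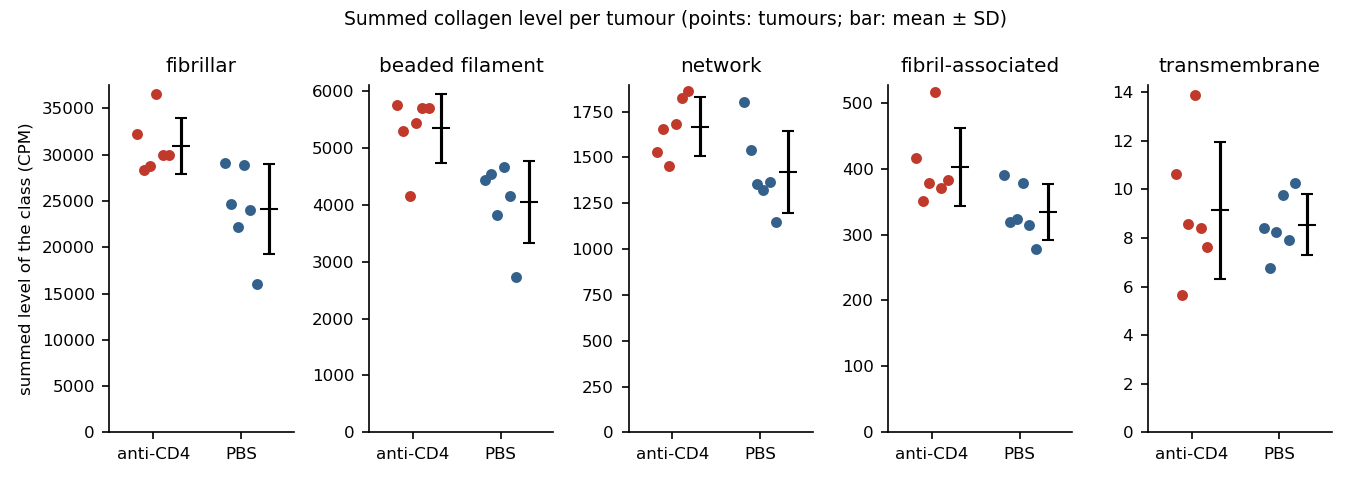
Summed level (CPM, axes from 0) of each structural class per tumour, anti-CD4 in red on the left and PBS in blue on the right of each panel, with mean ± SD as bars. Fibrillar chains sum to 28390 to 36560 CPM in anti-CD4 tumours and 16020 to 29060 CPM in PBS tumours, and the panels differ in scale.

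Among the fibrillar collagens, Col3a1, the single chain of type III collagen, was the most abundant per length, at 6195 CPM per kilobase of its mean protein-coding transcript. It was followed by the type I chains Col1a2 at 1595 and Col1a1 at 961 CPM per kilobase. The order below Col3a1 depends on the transcript length used. With the longest protein-coding transcript, chosen as an alternative after the data were seen, the levels were 2555 for Col3a1, 961 for Col1a1 and 924.3 CPM per kilobase for Col1a2. Col3a1 measured 15420, 15920 and 18520 CPM in anti-CD4 tumours (lowest, median, highest) and 7764, 12260 and 15040 CPM in PBS tumours. Every anti-CD4 tumour was above every PBS tumour, and the log2 fold change was 0.43 (SE 0.13), but the adjusted p of 0.0606 missed the threshold.

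Col11a1, a chain of type XI collagen that nucleates thin fibrils in cartilage, is the fibrillar gene that was called higher, though its log2 fold change was below that of Col3a1. It lies on chromosome 3 from 114030540 to 114220718 (GRCm38, plus strand). Its level was 68.3, 83.2 and 86.9 CPM in anti-CD4 tumours and 58.3, 61.8 and 80.5 CPM in PBS tumours, with 4 of 6 anti-CD4 tumours above the highest PBS tumour. The log2 fold change was 0.32 (SE 0.08, adjusted p = 0.043). This call was kept in 2 of the 12 fits that left out 1 tumour, those without anti-CD4 tumour 1 or PBS tumour 1. Without anti-CD4 tumours 2, 3, 4, 5 and 6 the adjusted p was 0.0905, 0.0700, 0.0615, 0.1003 and 0.0943, and without PBS tumours 2, 3, 4, 5 and 6 it was 0.0653, 0.0850, 0.0665, 0.0909 and 0.0975. With library depth (log2 total) as a covariate the log2 fold change was 0.19 (adjusted p = 0.4005).

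The type I chains averaged 6277 ± 1049 CPM (Col1a1) and 5442 ± 589 CPM (Col1a2) in anti-CD4 tumours, and 5119 ± 1119 CPM (Col1a1) and 4444 ± 892 CPM (Col1a2) in PBS tumours. Both had a log2 fold change of 0.29, with adjusted p of 0.202 and 0.1499, and 2 of 6 anti-CD4 tumours above the PBS range for each. The chains of type V, which co-assemble with type I and limit fibril width, had log2 fold changes of 0.25 (Col5a1), 0.26 (Col5a2) and 0.18 (Col5a3), with adjusted p of 0.147, 0.1215 and 0.262. The less abundant fibrillar genes lay on the other side of 0. Col11a2, the second type XI chain, averaged 1.03 CPM in anti-CD4 tumours and 1.62 CPM in PBS tumours (log2 fold change -0.67, adjusted p = 0.127), Col24a1 3.53 CPM in anti-CD4 and 4.86 CPM in PBS tumours (-0.46, adjusted p = 0.139), and Col27a1 13.1 CPM in anti-CD4 and 15.2 CPM in PBS tumours (-0.22, adjusted p = 0.547). Col2a1, the cartilage fibril chain, had 10 counts in all anti-CD4 tumours together and 16 in all PBS tumours, and Acan, a cartilage proteoglycan, was likewise too low to test.

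**Figure D3:**
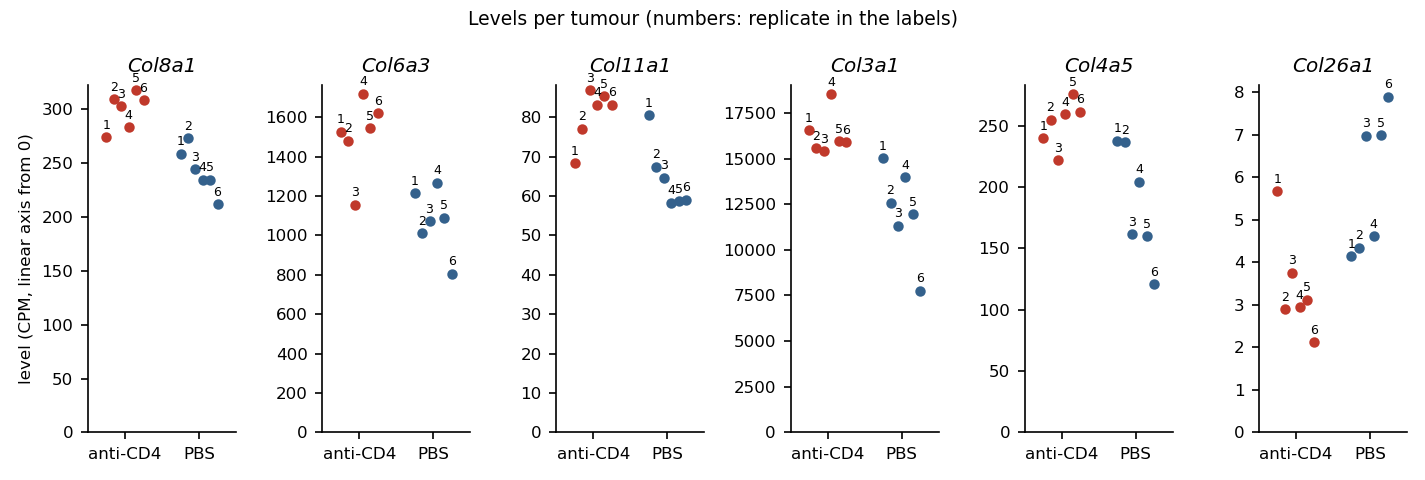
Level (CPM, axes from 0) of 6 collagen genes in each tumour, anti-CD4 in red on the left and PBS in blue on the right, with the replicate number of the labels beside each point. Col8a1 and Col3a1 show no overlap between the groups, anti-CD4 tumour 3 is low for Col6a3 among the anti-CD4 tumours, and Col26a1 is lower in 5 of 6 anti-CD4 tumours than in any PBS tumour.

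Among the network collagens, Col8a1, the α1 chain of type VIII collagen, known from vessel walls and from Descemet's membrane of the eye, rose. The gene is on chromosome 16 from 57624258 to 57754737 (minus strand), and a broken stretch of its repeat is printed above. Its level was 273.7, 305.6 and 317.5 CPM in anti-CD4 tumours and 211.8, 239.2 and 272.9 CPM in PBS tumours. The lowest anti-CD4 tumour was just above the highest PBS tumour, and the log2 fold change was 0.30 (SE 0.06, adjusted p = 0.0233). Without anti-CD4 tumours 2, 5 and 6 the adjusted p was 0.0631, 0.0683 and 0.0585, without PBS tumours 3 and 5 it was 0.0627 and 0.0611, and in the 7 other such fits the call was kept. With library depth (log2 total) as a covariate the log2 fold change was 0.25 (adjusted p = 0.248). Its partner chain Col8a2 was at 1.16 ± 0.351 CPM in anti-CD4 tumours and 1.17 ± 0.294 CPM in PBS tumours, with a log2 fold change of -0.02 (adjusted p = 0.963).

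The common type IV chains of basement membranes, Col4a1 and Col4a2, averaged 691 ± 83.4 CPM (Col4a1) and 388 ± 48.5 CPM (Col4a2) in anti-CD4 tumours, and 607 ± 108 CPM (Col4a1) and 350.1 ± 62.9 CPM (Col4a2) in PBS tumours. Their log2 fold changes of 0.19 and 0.15 did not pass the test (adjusted p = 0.276 and 0.389), the groups overlapped, and both were below 0 with library depth as a covariate (-0.02 and -0.06). Col4a5, a chain of a further type IV network known from kidney glomeruli, measured 221.8, 257.3 and 275.8 CPM in anti-CD4 tumours and 120.7, 183.0 and 237.7 CPM in PBS tumours. Of the anti-CD4 tumours, 5 of 6 were above the PBS range, with a log2 fold change of 0.43 (SE 0.14) and an adjusted p of 0.0855. Col4a3, Col4a4 and Col10a1, the last a type X chain of growth plate cartilage, had log2 fold changes of 0.01, 0.17 and -0.01 (adjusted p = 0.975, 0.219 and 0.971). The 6 type IV genes lie in 3 head-to-head pairs, and the members of a pair were not always equally abundant. By mean transcript length, Col4a3 and Col4a4 were close, at 1.78 and 1.58 CPM per kilobase over all tumours. Col4a6, whose start lies 1308 bases from that of Col4a5 on chromosome X, had 0.049 CPM per kilobase over all tumours, against 40.3 for Col4a5.

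Col4a1 and Col4a2 start 22 bases inside each other on chromosome 8 and are transcribed away from each other. Since they kept the steadiest ratio of all pairs examined, their promoter windows are shown, from 250 bases before to 50 after each start (RefSeq, GRCm38.p6). The windows share 78 bases. Capitals mark 2 searched motifs on either strand, the CCAAT box (CCAAT, or ATTGG on the other strand) and the GC box (GGGCGG, or CCGCCC).
Col4a1, chr8:11312777-11313076, minus strand: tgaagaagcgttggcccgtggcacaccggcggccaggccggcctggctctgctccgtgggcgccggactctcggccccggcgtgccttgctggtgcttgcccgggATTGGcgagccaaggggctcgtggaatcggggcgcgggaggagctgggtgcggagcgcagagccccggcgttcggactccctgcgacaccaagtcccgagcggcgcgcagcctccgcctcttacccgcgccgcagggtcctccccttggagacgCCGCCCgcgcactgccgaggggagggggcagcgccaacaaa
Col4a2, chr8:11312555-11312854, plus strand: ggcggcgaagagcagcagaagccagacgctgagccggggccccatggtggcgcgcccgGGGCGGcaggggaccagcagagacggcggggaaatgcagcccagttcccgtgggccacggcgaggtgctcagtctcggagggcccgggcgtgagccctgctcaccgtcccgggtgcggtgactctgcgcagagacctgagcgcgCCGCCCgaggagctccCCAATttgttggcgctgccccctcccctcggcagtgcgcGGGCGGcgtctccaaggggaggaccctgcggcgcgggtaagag
A CCAAT box was found once in each window and a GC box once in the first and 3 times in the second, and the TATA box (TATAAA, or TTTATA) in neither. Of 32817 mouse promoter windows in the same table, 37.4% held a CCAAT box, 35.6% a GC box and 13.6% a TATA box. Of the 38 windows of the 35 collagen genes matched there, 13, 23 and 5 did. A match is a run of letters and says nothing of binding.

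Of the fibril-associated collagens, none was called. Col12a1 and Col14a1, which coat type I fibrils in tendon and skin, had the highest log2 fold changes of the class. Col12a1 measured 109.1, 117.4 and 187.9 CPM in anti-CD4 tumours and 81.2, 96.4 and 116.7 CPM in PBS tumours, and the log2 fold change was 0.40 ± 0.13 (SE), at an adjusted p of 0.0776. Anti-CD4 tumour 4 held the highest value, and 3 of 6 anti-CD4 tumours lay above the PBS range. Without that tumour the log2 fold change of Col12a1 was 0.26. Col14a1 measured 45.2, 55.4 and 95.5 CPM in anti-CD4 tumours and 24.5, 34.8 and 70.3 CPM in PBS tumours (log2 fold change 0.63, SE 0.28, adjusted p = 0.161). Col16a1, the most abundant of the class per length at 95.0 CPM per kilobase, averaged 208 ± 15.7 CPM in anti-CD4 tumours and 190.5 ± 28.2 CPM in PBS tumours (0.13, adjusted p = 0.348). The 4 other tested members, Col9a2, Col9a3, Col20a1 and Col22a1, were all under 3 CPM on average in both groups and all below 0, between -0.69 and -0.17. With library depth as a covariate, Col9a2 was at 0.25 and Col22a1 at 0.04. For Col9a3, a cartilage type IX chain, the means were 0.863 CPM in anti-CD4 tumours and 1.39 CPM in PBS tumours (adjusted p = 0.130). Its exons overlap those of Tcfl5 on the opposite strand by 234 bases, so reads from within these bases cannot be assigned to 1 of the 2 genes without strand. Col9a1 had 0 counts in the anti-CD4 tumours and 3 in the PBS tumours, and Col19a1 56 in the anti-CD4 tumours and 25 in the PBS tumours.

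Transmembrane collagens were scarce, and none was called. Col23a1 had 2.83, 4.89 and 9.64 CPM in anti-CD4 tumours and 3.54, 4.38 and 5.70 CPM in PBS tumours (log2 fold change 0.30, SE 0.24, adjusted p = 0.416). The anti-CD4 range enclosed the PBS range, and the log2 fold change of Col23a1 was 0.05 without anti-CD4 tumour 4 and 0.43 without anti-CD4 tumour 2. Col17a1, a hemidesmosome protein of epidermal keratinocytes, averaged 2.02 ± 0.263 CPM in anti-CD4 tumours and 2.24 ± 0.250 CPM in PBS tumours (-0.15, adjusted p = 0.511). Col25a1, a type known from neurons, averaged 1.38 ± 0.428 CPM in anti-CD4 tumours and 1.62 ± 0.434 CPM in PBS tumours (-0.24, adjusted p = 0.543). Col13a1, of focal adhesions and the neuromuscular junction, had 85 counts summed over the anti-CD4 tumours and 64 over the PBS tumours. The keratinocyte markers Krt1 and Dsg1a were at 0 in all tumours, and Krt5 and Krt14 averaged 0.0123 CPM or less in each group. Krt10 and Trp63, of the same list of 7, had enough counts for a test. The 7 markers summed to 2.62 to 4.28 CPM in anti-CD4 tumours and 2.38 to 3.67 CPM in PBS tumours, so keratinocyte markers were not absent as a list.

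Of the beaded filament collagens, Col6a3, the large α3 chain of type VI collagen from which the fragment endotrophin is cleaved, rose. It lies on chromosome 1 from 90765923 to 90843971 (minus strand). It measured 1156, 1536 and 1721 CPM in anti-CD4 tumours and 805.4, 1082 and 1268 CPM in PBS tumours. All anti-CD4 tumours except number 3 were above the PBS range. The log2 fold change was 0.49 (SE 0.11, adjusted p = 0.0323). Without anti-CD4 tumours 2, 5 and 6 the adjusted p was 0.0747, 0.0836 and 0.0733, without PBS tumours 2, 3, 5 and 6 it was 0.0581, 0.0685, 0.0614 and 0.0587, and in the 5 other such fits the call was kept. With library depth (log2 total) as a covariate the log2 fold change was 0.40 (adjusted p = 0.287).

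Col6a1 and Col6a2, the chains that join Col6a3 in the type VI monomer, did not pass the test. Col6a1 averaged 2034 ± 237 CPM in anti-CD4 tumours and 1526 ± 294 CPM in PBS tumours (log2 fold change 0.41, SE 0.13, adjusted p = 0.0648), and Col6a2 averaged 1790 ± 223 CPM in anti-CD4 tumours and 1440 ± 293 CPM in PBS tumours (0.31, SE 0.13, adjusted p = 0.147). For each, 5 of 6 anti-CD4 tumours were above the PBS range. The 3 chains that resemble Col6a3 in structure were low. Col6a5 had 0.605, 1.70 and 4.95 CPM in anti-CD4 tumours and 2.37, 6.10 and 10.4 CPM in PBS tumours (-1.53, SE 0.52, adjusted p = 0.0929). Col6a6 averaged 6.57 ± 2.64 CPM in anti-CD4 tumours and 3.57 ± 2.93 CPM in PBS tumours (0.89, SE 0.47, adjusted p = 0.230). The groups overlapped for both, with 4 of 6 anti-CD4 tumours below the PBS range for Col6a5 and 1 of 6 above it for Col6a6. Col6a4 averaged under 0.4 CPM in both groups (adjusted p = 0.757).

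Col7a1, the chain of the anchoring fibrils that fasten the epidermis, had 1.19, 1.603 and 2.33 CPM in anti-CD4 tumours and 1.83, 2.59 and 3.45 CPM in PBS tumours (log2 fold change -0.61, SE 0.21, adjusted p = 0.0839). Col26a1 had 2.12, 3.03 and 5.67 CPM in anti-CD4 tumours and 4.15, 5.81 and 7.90 CPM in PBS tumours (-0.78, SE 0.23, adjusted p = 0.0607). In 5 of 6 anti-CD4 tumours Col26a1 was below the PBS range, and for Col7a1 this was so in 4 of 6. Col28a1 was at -0.17 (adjusted p = 0.590). The multiplexins of the basement membrane zone, Col15a1 and Col18a1, Col18a1 being the source of endostatin, averaged 108 ± 22.9 CPM (Col15a1) and 204 ± 24.2 CPM (Col18a1) in anti-CD4 tumours and 95.3 ± 12.3 CPM (Col15a1) and 181 ± 26.0 CPM (Col18a1) in PBS tumours (adjusted p = 0.411 and 0.253).

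The sign of the log2 fold change went with the level. Of 22 collagens with a mean of 10 CPM or more, 20 had a positive log2 fold change, with a median of 0.28. Of the 18 tested collagens below 10 CPM, 5 did, with a median of -0.21. The cut at 10 CPM was set after the values were seen. The same direction was present over all tested genes, of which 66.2% were positive at or above 10 CPM and 28.9% below it, with medians of 0.06 and -0.24. Below 10 CPM, 16 genes were called higher and 249 lower, and at or above it 513 were called higher and 169 lower. All 3 collagens called higher were in the upper part. The fibrillar class split into 8 members at or above 10 CPM with a median of 0.28 and 2 tested members below it with a median of -0.56, and the fibril-associated class into 3 with a median of 0.40 and 4 tested with a median of -0.39. Network and beaded filament collagens under 10 CPM had medians of 0.01 and 0.19 over 3 members each. Most members of the fibril-associated class and all of the transmembrane class were below 10 CPM, so class and level cannot be told apart there.

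**Figure D4:**
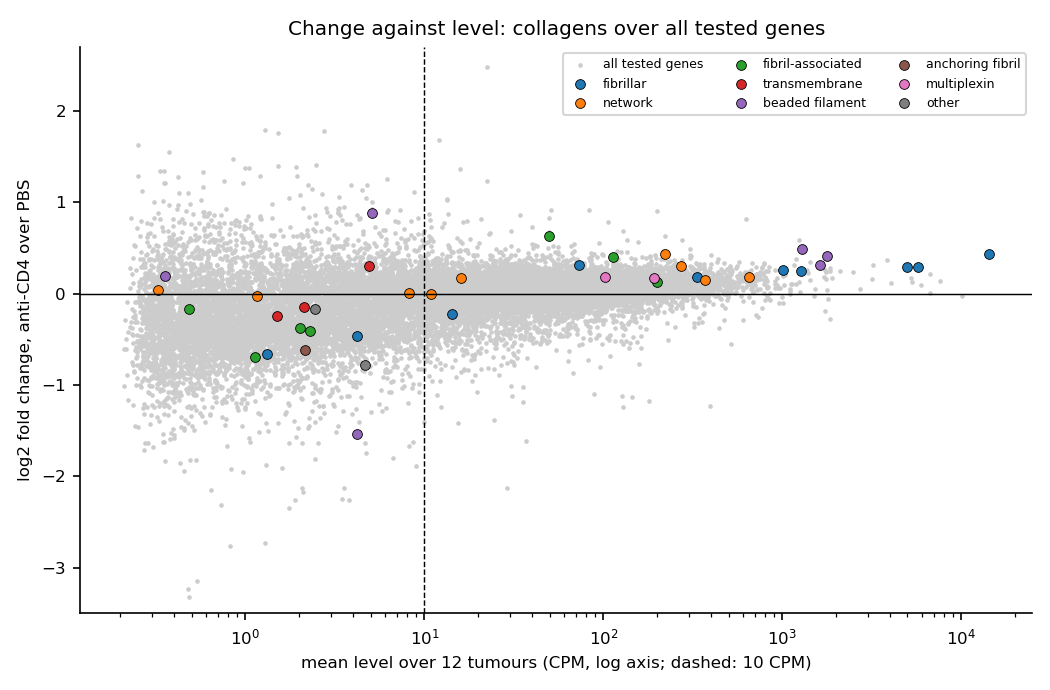
Log2 fold change (anti-CD4 over PBS) against the mean level over the 12 tumours (CPM, log axis) for all tested genes in grey and the 40 tested collagens coloured by class, with a dashed line at 10 CPM. Collagens right of the line lie above 0 in 20 of 22 cases, and grey points left of the line lie below 0 more often than above.

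Ratios of chains within a tumour do not depend on library scaling, and 14 pairs were compared between the groups with an exact permutation test, two-sided, that enumerated every way to split the 12 tumours 6 and 6. No pair passed Benjamini-Hochberg adjustment over the 14. The smallest p was that of Col6a1 over Col6a2, with a mean log2 ratio of 0.19 ± 0.06 in anti-CD4 tumours and 0.09 ± 0.06 in PBS tumours (SD, n = 6 each, exact p = 0.0173, adjusted p = 0.202). Next were Col4a1 over Col4a2 with a difference of 0.04 (exact p = 0.0303) and Col4a5 over Col4a1 with a difference of 0.28 (exact p = 0.0433), both also at an adjusted p of 0.202. The ratio of basement membrane to fibrillar RNA, taken as Col4a1 over Col1a1, was -3.18 ± 0.27 in anti-CD4 tumours and -3.06 ± 0.30 in PBS tumours on the log2 scale (exact p = 0.507). The ratio of Col12a1 to Col1a1, fibril-associated to fibrillar, was -5.62 ± 0.14 in anti-CD4 tumours and -5.69 ± 0.35 in PBS tumours (exact p = 0.675). Col3a1 over Col1a1 was 1.39 ± 0.14 in anti-CD4 tumours and 1.24 ± 0.11 in PBS tumours (exact p = 0.0649).

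Some pairs of chains kept a closer ratio across tumours than either level alone, and these were not only partner chains. Over all 12 tumours the log2 ratio of Col4a1 to Col4a2 spanned 0.09, while each gene alone spanned 0.70 and 0.69. The type I chains spanned 0.23 in their ratio and 1.25 and 1.13 alone, and Col6a1 and Col6a2 spanned 0.28 in their ratio and 1.16 and 1.15 alone. Col6a3 over Col6a1 spanned 0.67, against 1.10 for Col6a3 and 1.16 for Col6a1. Col8a1 over Col8a2 spanned 1.49, more than the 0.58 of Col8a1 and the 1.21 of Col8a2, whose counts are low. Col12a1 over Col14a1 spanned 1.53. Among pairs from different collagen types, Col3a1 over Col1a1 spanned 0.50, against 1.25 for Col3a1 and 1.25 for Col1a1. Col12a1 over Col1a1 spanned 0.98, against 1.21 for Col12a1. Col4a1 over Col1a1 spanned 0.84, more than the 0.70 of Col4a1.

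**Figure D5:**
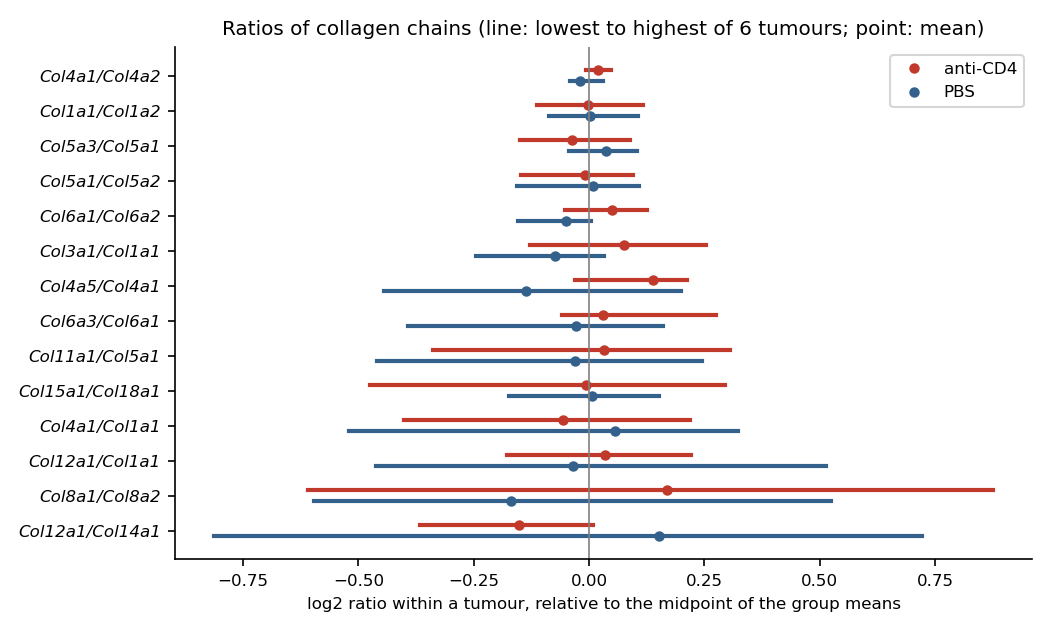
Log2 ratio of 14 pairs of collagen genes within a tumour, drawn relative to the midpoint of the group means, with anti-CD4 in red above PBS in blue, lines from the lowest to the highest of 6 tumours and points at the mean. Pairs are ordered by their span over all tumours, from 0.09 for Col4a1 over Col4a2 at the top to 1.53 for Col12a1 over Col14a1 at the bottom, and the group means differ little beside the lines for most pairs.

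Genes that modify, export, crosslink, degrade or bind collagen were read from the same test. Of 51 tested genes over the 6 lists, 4 rose and 1 fell, against 2.95% of all genes called higher and 2.33% lower. Of 15 genes for chain hydroxylation and glycosylation none was called (13 above 0, median 0.11), the smallest p-values being those of P4hb, the β subunit of prolyl 4-hydroxylase (0.22, adjusted p = 0.0830), and the lysyl hydroxylase Plod2 (0.28, adjusted p = 0.103). Of 9 genes for folding and export, Sec23a, a COPII coat protein needed for export of procollagen, rose to 129.7 ± 8.88 CPM in anti-CD4 tumours, against 108.6 ± 7.70 CPM in PBS tumours (0.26, SE 0.06, adjusted p = 0.0333), with no overlap between the groups. Serpinh1, the collagen chaperone HSP47, had a log2 fold change of 0.34 (adjusted p = 0.0720). None of 6 tested genes of propeptide processing was called, with Pcolce2, an enhancer of procollagen C-proteinase, at 0.65 (adjusted p = 0.157) and the N-proteinase Adamts2 at 0.36 (adjusted p = 0.308). Without anti-CD4 tumour 4 that of Adamts2 was 0.16.

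Among 5 crosslinking enzymes Loxl1, a lysyl oxidase, rose, at 258 ± 18.5 CPM in anti-CD4 tumours and 203.5 ± 30.5 CPM in PBS tumours (0.34, SE 0.09, adjusted p = 0.0402). The median of that list was 0.34, and 0.19 without anti-CD4 tumour 4. In it 4 genes were above 0 and 1, Loxl3, was below, at -0.25 (adjusted p = 0.135). Of 7 tested genes of breakdown and uptake Mrc2, the receptor Endo180 that takes up collagen fragments, rose (282 ± 15.3 CPM in anti-CD4 and 233 ± 29.0 CPM in PBS tumours, log2 fold change 0.28, SE 0.07, adjusted p = 0.0455), with a list median of 0.38, which was 0.21 without PBS tumour 4 and 0.17 with library depth as a covariate. Of 9 collagen receptors Ddr2, a receptor tyrosine kinase for fibrillar collagen, rose (566 ± 22.8 CPM in anti-CD4 and 477 ± 46.0 CPM in PBS tumours, log2 fold change 0.25, SE 0.06, adjusted p = 0.0415). Lair1, an inhibitory collagen receptor of leukocytes, fell to 14.4 ± 3.55 CPM in anti-CD4 tumours, against 23.7 ± 5.33 CPM in PBS tumours (-0.72, SE 0.17, adjusted p = 0.0364). Each of these 5 calls was lost without anti-CD4 2, 5 or 6 or PBS 2, 3, 5 or 6, and some also without anti-CD4 3 or 4 or PBS 4, with adjusted p of up to 0.105, and with library depth as a covariate, where the adjusted p was 0.236 to 0.404. Upper quartile scaling gave adjusted p of 0.0589 for Loxl1, 0.0544 for Mrc2 and 0.0878 for Ddr2, and without a filter on low counts the adjusted p of Mrc2 was 0.0565.

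Markers of the cells that could carry these RNAs were measured beside the collagens. Of 8 fibroblast markers 2 rose, Pdgfra (0.28, adjusted p = 0.0422) and Lum (0.83, adjusted p = 0.0337), against 2.95% of all genes called higher. Of the 8 markers, 7 were above 0 and 1 was at -0.72, and the list median was 0.53. At an unadjusted p under 0.05 in the same test, 6 markers were higher and 1 was lower. The summed level of the 8 fibroblast markers was 1223 to 1509 CPM in anti-CD4 tumours and 923.7 to 1250 CPM in PBS tumours. Of 8 endothelial markers none was called, with a median of 0.06 and sums of 138 to 276 CPM in anti-CD4 tumours and 160 to 215 CPM in PBS tumours. Of 6 mural cell markers none was called (median 0.07, sums of 233 to 452 CPM in anti-CD4 and 193 to 348 CPM in PBS tumours). Adipocyte marker sums ran from 2.55 to 264.6 CPM in anti-CD4 tumours and 37.0 to 152.8 CPM in PBS tumours, and skeletal muscle marker sums from 254 to 1292 CPM in anti-CD4 and 157 to 1268 CPM in PBS tumours, with none called in either list. Of 6 Schwann cell markers none was called (median -0.13, sums of 6.83 to 72.3 CPM in anti-CD4 and 10.9 to 58.6 CPM in PBS tumours). Leukocyte markers had a median of -0.28 with none of 5 tested called, and sums of 468 to 586 CPM in anti-CD4 tumours and 437 to 793 CPM in PBS tumours. Of these 5, 4 were below 0, the lowest at -1.28, and 1 was above. At an unadjusted p under 0.05, 2 were lower and 0 higher, against 14.7% of all genes lower and 13.4% higher. Among mesothelial markers, 5 of 9 were tested and Pdpn was called (0.33, adjusted p = 0.0186), with sums of 133.5 to 203.6 CPM in anti-CD4 and 125.8 to 173.1 CPM in PBS tumours. Of the 7 keratinocyte and 7 cartilage and bone markers 2 each were tested, with none called. Keratinocyte sums were 2.62 to 4.28 CPM in anti-CD4 and 2.38 to 3.67 CPM in PBS tumours. Cartilage and bone sums were 22.1 to 27.1 CPM in anti-CD4 and 20.8 to 26.8 CPM in PBS tumours, nearly all from Sox9. The calls of Pdgfra and Lum were lost without anti-CD4 2, 5 or 6 or PBS 2, 3, 5 or 6, that of Pdgfra also without anti-CD4 3 or 4, with adjusted p of up to 0.104 and 0.0871, and that of Pdpn without anti-CD4 2 (adjusted p = 0.0514). Upper quartile scaling gave adjusted p of 0.0665 for Pdgfra and 0.0517 for Lum. With library depth as a covariate the adjusted p was 0.199 for Pdgfra, 0.277 for Lum and 0.212 for Pdpn. The part of fibroblast number in the collagen values was not tested.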

How the data were processed

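Bulk RNA of 6 anti-CD4 and 6 PBS tumours, after depletion of rRNA and globin RNA, was read as pairs of 100 bases, per the labels' protocols. The authors deposited a table of estimated counts by gene, made with kallisto (version not given) against GRCm38.p6 after bcl2fastq 2.20.0.422, per the submitters' processing notes. The sources used here do not give the strand setting, the annotation release or the step from transcripts to genes. Of the values, 35.7% to 37.9% in a tumour were not whole (tolerance 1e-06). Of 35999 symbols, 35973 matched GENCODE M21 (GRCm38), the source of coordinates and transcripts, and 26 had become dates, with 0.227% of counts.

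Counts were rounded, filtered with filterByExpr, scaled by TMM and tested over 17940 genes with the edgeR 4.0.16 quasi-likelihood F test (robust, R 4.3.3) and Benjamini-Hochberg adjustment. The biological coefficient of variation was 0.193. A standard error is the log2 fold change over the square root of F. Totals were 30.75 to 62.06 M counts, and the precision of low genes is limited accordingly. Alternatives were DESeq2 1.42.0, limma 3.58.1 voom with sample weights, other scalings and filters, a replicate block, library depth (log2 total) as a covariate and leaving out tumours. The script was tested on simulated data. Level per kilobase used the mean length of protein-coding transcripts. Repeats are runs of at least 5 GGN triplets in the longest open reading frame. Chain ratios used 0.5 added counts.

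The members, classes, lists and pairs were chosen with earlier results of these data known. Genes were named by rule: each called collagen, per class the 3 highest per kilobase and the 2 with the smallest p, chain pairs, called members of each pathway list (or its 2 smallest p) and Cd4. Named beyond it, after their values were seen, were the other collagens, Serpinh1, Loxl3 and Mmp2, with marker genes. Replicate pairs within a group differed far beyond sampling noise (chi-square per degree of freedom 8.47 to 65.5 in 30 pairs). The labels do not tie tumours to mice, so p-values measure the spread between these samples.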

Additional observations from a re-analysis of the deposited data

Results flagged for a closer look

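In 7 of 96 groups of 6 tumours examined, 1 tumour stood apart from the other 5 by Dixon's criterion, which chance meets in about 1 in 20 groups. Anti-CD4 tumour 4 had the highest Col3a1, at 18520 CPM against 15420 to 16570 CPM in the other anti-CD4 tumours. It also had the highest Col12a1, at 187.9 CPM against 109.1 to 128.0 CPM. The same tumour had the highest log2 ratio of Col6a3 to Col6a1 in its group, at -0.1868 against -0.52 to -0.43. PBS tumour 2 had the lowest such ratio in the PBS group, at -0.8548 against -0.50 to -0.30. Anti-CD4 tumour 3 had the lowest sum of beaded filament collagens among anti-CD4 tumours, at 4157 CPM against 5296 to 5755 CPM. Anti-CD4 tumour 1 had the highest sum of Col26a1 and Col28a1, at 8.035 CPM against 5.01 to 5.48 CPM. Anti-CD4 tumour 6 had the lowest log2 ratio of Col4a5 to Col4a1 in its group, at -1.616 against -1.46 to -1.37.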

How the results depend on the processing

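Medians of the collagens and of the fibrillar, transmembrane and beaded filament classes moved by less than the spread between tumours in every alternative run. These runs included all 12 fits without 1 tumour. The sums of all collagens and of the fibrillar, network, fibril-associated, transmembrane and beaded filament classes were recomputed only under other scalings and with tumours left out. They moved by less than that spread there, and were not examined with library depth as a covariate. With library depth (log2 total) as a covariate the network median was -0.0242 and the fibril-associated median 0.15. The transmembrane median turned to 0.0204 in place of -0.15. In that fit Col4a1 (-0.0242), Col4a2 (-0.0623), Col4a3 (-0.2093), Col4a6 (-0.1143), Col15a1 (-0.0264) and Col18a1 (-0.0105) turned negative. Col8a2 (0.10), Col9a2 (0.2482), Col17a1 (0.0167), Col22a1 (0.0438) and Col25a1 (0.0204) turned positive. That fit called 0 collagens (5 higher and 0 lower at an unadjusted p under 0.05, where 2193 of 17940 genes, 12.2%, lay), 0 genes of the pathway lists in either direction, and 0 genes higher and 5 lower in all. Depth and group cannot be fully told apart, since the deepest libraries were anti-CD4 ones. DESeq2 called 7 collagens higher and 3 lower (all genes 1318 and 1144, pathway lists 8 higher), and limma voom 13 and 7 (all genes 2809 and 3169, pathway lists 16 higher). Over all genes, the absence of a filter gave 272 higher and 251 lower, and upper quartile scaling gave 179 higher and 1 pathway gene higher. The other scalings and filters called the same 3 collagens. Without both anti-CD4 3 and 4, 705 genes were lower, 1 pathway gene was higher, and Col15a1 over Col18a1 was 0.0273 in place of -0.0143.

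The replicate numbers did not pair the tumours, with correlations of same-numbered tumours of -0.41 to 0.23 and 0 of 6 correlating best with its own number. With the number as a block, 0 collagens (20 at an unadjusted p under 0.05), 19 genes higher, 14 lower, and 1 pathway gene higher and 0 lower were called. That pathway gene was Mmp2 of the breakdown list (log2 fold change 0.57, adjusted p = 0.0447 with the block), which was not called without the block (0.56, adjusted p = 0.0607). In the fits without 1 tumour, 0 to 6 collagens were called higher and 0 to 2 lower, 35 to 1160 genes higher and 31 to 1480 lower, and 0 to 10 pathway genes higher and 0 to 1 lower. Differences in log2 ratio ran from -0.0271 to 0.0189 (Col1a1 over Col1a2), -0.0511 to 0.0098 (Col5a1 over Col5a2), -0.0232 to 0.1366 (Col11a1 over Col5a1), -0.0146 to 0.0961 (Col6a3 over Col6a1), -0.0745 to 0.0792 (Col15a1 over Col18a1), -0.0172 to 0.1781 (Col12a1 over Col1a1) and 0.0774 to 0.1186 (Col6a1 over Col6a2, which passed adjustment without anti-CD4 1). The log2 fold change of Col8a2 ran from -0.17 to 0.11. By the longest transcript in place of the mean length, chosen after seeing the data, the level per kilobase of Col3a1 was 2.66 times that of Col1a1 in place of 6.447, of Col1a2 0.962 in place of 1.66 and of Col4a1 0.102 in place of 0.243. The cause of these changes was not tested.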
